A study of Rattus norvegicus with 6 samples.

Results

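Eicosanoids are signalling lipids made from arachidonic acid. Phospholipase A2 enzymes release the fatty acid from membranes, cyclooxygenases turn it into prostaglandins, lipoxygenases turn it into leukotrienes and hydroxy acids, and cytochrome P450 enzymes turn it into epoxides that epoxide hydrolases break down. In the liver most of the prostaglandin and leukotriene machinery is known from macrophages and other non-parenchymal cells, whereas the epoxide branch is known from hepatocytes. The genes described here are 10 of the 30957 in the table, namely Pla2g2a, Pla2g4a, Ptgs1, Ptgs2, Ptges, Alox5, Alox5ap, Alox15, Ltc4s and Ephx2. They were taken by gene name, and the list was chosen with the differences between the groups in these same livers already known. Differences between the groups in these 10 genes are therefore given as a description, without p-values, and so is whether a gene met the study's criteria.

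Bulk RNA was sequenced from the livers of 3 of 6 t-PBS and 3 of 6 t-DHEA rats. The p-values below set the difference between the groups against the spread between these livers. All 6 were female Sprague Dawley rats that were bought at 3 weeks of age and made pseudo germ-free with 3 courses of an antibiotic cocktail in the drinking water. For 14 days they then received by daily gavage the pooled faeces of donors injected with PBS (t-PBS) or with dehydroepiandrosterone (DHEA), an androgen precursor that gives female rats features of polycystic ovary syndrome (t-DHEA). The recipients themselves were not injected with DHEA, antibiotics reduce but do not remove the microbiota, and the recipients of a group shared a donor pool. The rats also shared cages, and the paper does not state which livers came from the same cage. The p-values therefore do not cover differences between donor pools, and the livers may not be fully independent. The comparison asks how the liver responds to the faeces of DHEA-treated donors, including their microbiota. The paper found more DHEA sulfate in these faeces, which passed to the recipients with the microbiota, and no DHEA. Its authors considered the levels very low and the effect possibly unrelated to either compound. The parts of microbiota and DHEA sulfate cannot be told apart here.

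Each liver had between 12348511 and 14316886 fragments counted on genes, and the hepatocyte markers summed to between 120200 and 148900 CPM in each. CPM are counts relative to the library size after scaling with TMM factors, and FPKM are the authors' values per kilobase of transcript, which are used wherever levels of different genes are set side by side. Of 13 lists of cell type markers, 5 did not overlap between the groups in their summed CPM. The capsule mesothelium and bile duct lists were lower in t-DHEA livers, also without their highest genes, Gpm6a and Epcam. The intestinal epithelium list was lower, and the neutrophil and smooth muscle lists higher, through 1 gene each, Lyz2, S100a9 and Tagln. Without these genes, the neutrophil and smooth muscle lists overlapped and the intestinal list was higher in t-DHEA livers. The lists of macrophages, mast cells, eosinophils, platelets, stellate cells, sinusoidal endothelium, exocrine pancreas and hepatocytes overlapped, with Tpsab1 of mast cells and Prss1, Pnlip and Amy2a3 of the pancreas at 0 in every liver. In bulk tissue, fewer cells of a type and less RNA per cell cannot be told apart.

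Of the 10 genes, 6 passed edgeR's filter for low counts, 3 had counts below it, and Ptges had no count in any liver. In the livers of t-PBS rats the order of the mean levels was Ephx2 (27.7 FPKM), Ptgs1 (10.8), Pla2g2a (6.30), Pla2g4a (1.91), Alox5ap (1.69), Ltc4s (0.538), Alox15 (0.356), Ptgs2 (0.0784) and Alox5 (0.0537). The ranges of 3 livers overlapped between the neighbours Pla2g4a and Alox5ap, between Ltc4s and Alox15, and between Ptgs2 and Alox5, and the other neighbours with counts were separate. The study's criteria for a changed gene were a fold-change above 1.2 together with an unadjusted p under 0.05, and by them 1 of the 6 genes was called lower in t-DHEA livers and 1 was called higher. Over the 12210 genes tested, 2.98% were called lower and 1.97% higher, and 4.95% in either direction. Among the 6 genes, 2 had groups without overlap, Pla2g2a and Alox15, against 10.1% of all genes tested, and also not for Ptgs2 below the filter. The median log2 fold change was 0.098 over the 6 genes and 0.0013 over all genes tested. Since the list was drawn up with this contrast in view, nothing is read from these shares.

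**Figure D1:**
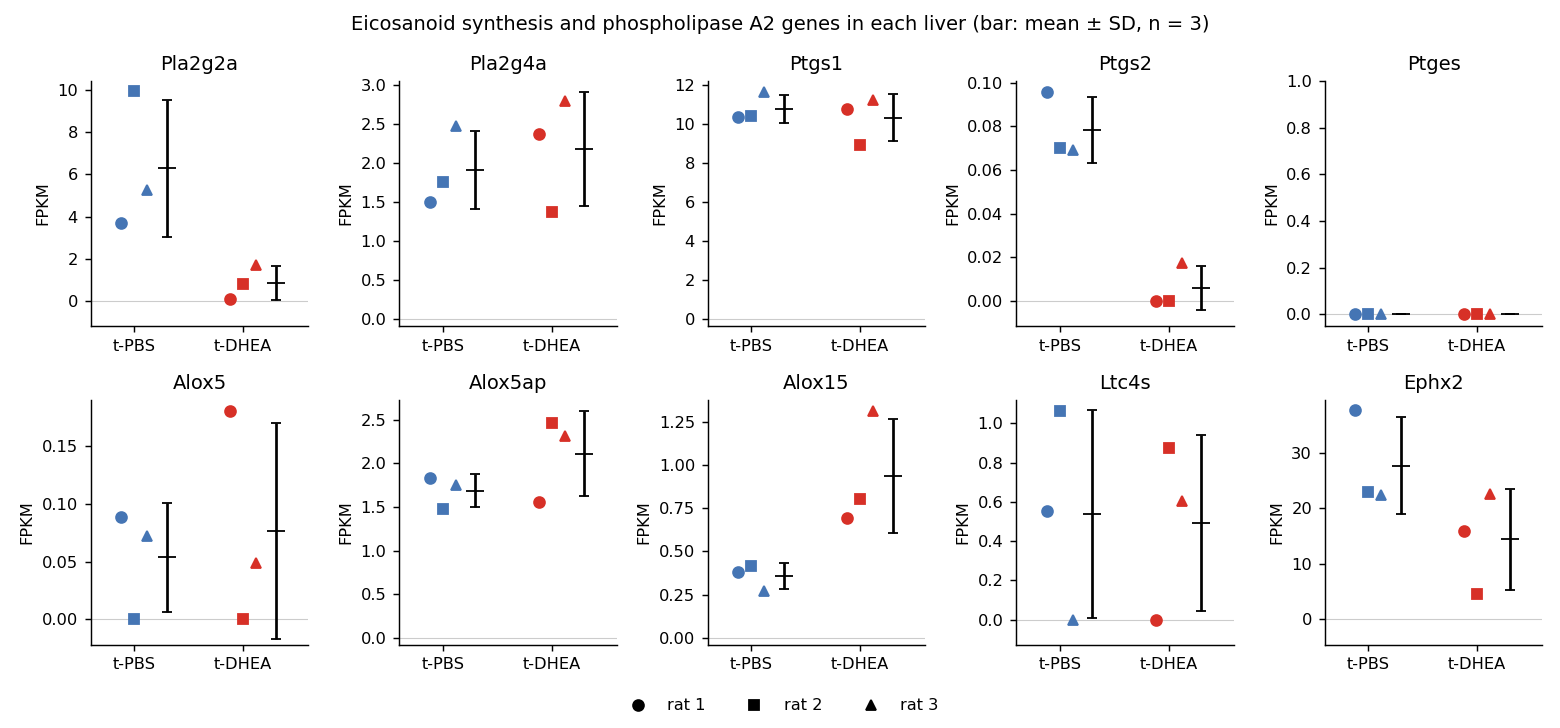
FPKM of each of the 10 genes in each liver, with t-PBS livers in blue, t-DHEA livers in red, a symbol for each rat number, and the mean ± SD of 3 livers as a bar. Each t-DHEA liver lies below each t-PBS liver for Pla2g2a and Ptgs2 and above it for Alox15, and Ephx2 is lowest in t-DHEA rat 2 (4.52 FPKM).

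The secreted phospholipase Pla2g2a (ENSRNOG00000016945, chr5:157282669-157285328 of Rnor_6.0), an enzyme of inflammatory fluids and of the defence against bacteria, had the largest log2 fold change of the 6 genes above the filter. Rats 1, 2 and 3 of t-PBS gave 45, 110 and 59 counts, whereas rats 1, 2 and 3 of t-DHEA gave 1, 9 and 19. The highest t-DHEA liver (1.47 CPM) was below the lowest t-PBS liver (3.15 CPM), and t-DHEA rat 1 was almost without the transcript. The level was 5.24 ± 2.57 CPM (SD, n = 3) in t-PBS and 0.741 ± 0.695 CPM (SD, n = 3) in t-DHEA livers. This was a log2 fold change of -2.79 (SE 0.61), or 6.90-fold lower. Leaving out t-DHEA rat 3 made it -3.71, and leaving out t-DHEA rat 1 made it -2.29. The livers of a group also differed among themselves, with a within-group SD of 1.11 on the log2 CPM scale, which was larger than that of 99.3% of the genes tested.

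Pla2g4a (ENSRNOG00000002657, chr13:66988937-67206693), the calcium-dependent cytosolic phospholipase that is selective for arachidonic acid, overlapped between the groups. Its counts were 75, 80 and 114 in t-PBS and 102, 65 and 127 in t-DHEA livers. The log2 fold change was 0.22 (SE 0.28), with a 95% interval from -0.41 to 0.86. The order of both phospholipases within a liver therefore differed between the groups. Per length, Pla2g2a was 2.46, 5.64 and 2.12 times as high as Pla2g4a in the t-PBS livers. In the t-DHEA livers Pla2g4a was instead 24.9, 1.76 and 1.63 times as high as Pla2g2a.

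Several lists of cell type markers also differed between the livers in which Pla2g2a differed. The 6 capsule mesothelium markers, none of them at 0 throughout, summed to 33.4 to 36.2 CPM in t-PBS livers and to 18.7, 1.72 and 27.3 CPM in t-DHEA rats 1, 2 and 3. Of these markers 5 passed the filter and 3 were called lower, against 2.98% of all genes tested. The marker lists were chosen with earlier results of these data known, so such counts are given as a description. Most of the level in t-DHEA rat 1 was Gpm6a, at 12.7 CPM against 10.2 to 10.8 CPM in t-PBS livers. The other 5 markers summed to 23.0 to 25.9 CPM in t-PBS livers and to 5.94, 1.57 and 11.3 CPM in t-DHEA rats 1, 2 and 3, so that they were low in t-DHEA rat 1, in which Pla2g2a was lowest, and lowest in t-DHEA rat 2. The 5 bile duct markers summed to 18.2 to 22.8 CPM in t-PBS and to 9.05 to 15.8 CPM in t-DHEA livers, and 2 of 4 tested were called lower. The 5 intestinal epithelium markers summed to 45.4 to 47.4 CPM and to 28.9 to 43.1 CPM, most of which was Lyz2, which macrophages also express, and without it to 2.11 to 2.45 CPM and to 2.70 to 3.66 CPM. The 5 smooth muscle markers summed to 20.1 to 27.6 CPM in t-PBS and to 29.1 to 42.3 CPM in t-DHEA livers. Without Tagln these sums were 10.3 to 15.0 CPM and 7.49 to 19.8 CPM and overlapped. The part of these cells in the level of Pla2g2a was not tested.

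**Figure D2:**
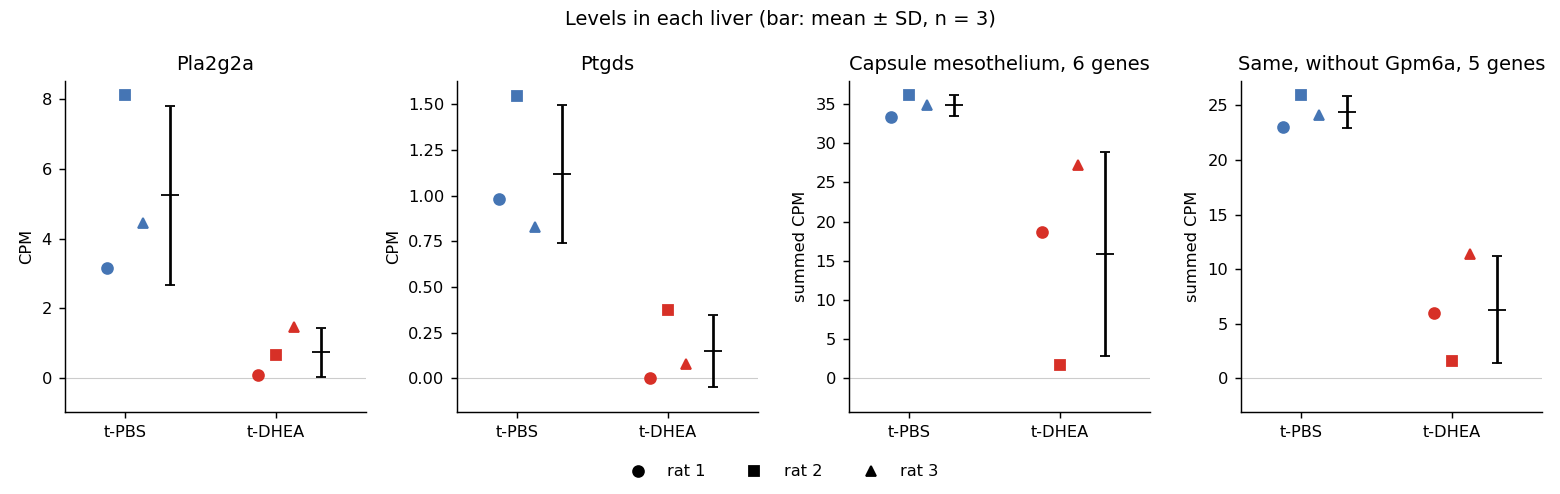
CPM of Pla2g2a and Ptgds and the summed CPM of 6 capsule mesothelium markers, with and without Gpm6a, in each liver, with t-PBS in blue, t-DHEA in red, a symbol for each rat number and the mean ± SD of 3 livers as a bar. All 4 measures are lower in each t-DHEA liver than in any t-PBS liver. In t-DHEA rat 1, the lowest liver for both genes, the markers stand at 18.7 CPM with Gpm6a and at 5.94 CPM without it. The markers are lowest in t-DHEA rat 2, at 1.72 and 1.57 CPM, which is the highest t-DHEA liver for Ptgds.

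Ptgs1 (ENSRNOG00000007415, chr3:15560712-15582344), the cyclooxygenase that most cells make continuously, was the steadiest of the 6 genes. It had 416, 381 and 432 counts in t-PBS and 374, 340 and 412 counts in t-DHEA livers, or 29.9 ± 2.36 CPM and 29.4 ± 3.45 CPM (SD, n = 3 each). The log2 fold change was -0.03 with a 95% interval from -0.30 to 0.25, and the within-group SD of 0.15 on the log2 CPM scale was below the median of 0.19 over all genes tested. Ptgs2 (ENSRNOG00000002525, chr13:67351087-67359335), the cyclooxygenase induced by inflammatory stimuli, was close to the limit of detection. Its counts were 6, 4 and 4 in t-PBS rats, against 0, 0 and 1 in t-DHEA rats. Every t-PBS liver was above the limit of 3 counts that a count of 0 allows, and every t-DHEA liver was below it. Over the groups this was 14 against 1 count, a ratio of 0.0764 for t-DHEA to t-PBS after scaling for depth, with an exact (Clopper-Pearson) 95% interval from 0.00181 to 0.502. Such an interval holds only the error of counting, without the spread from rat to rat.

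Per length, Ptgs1 was 108, 149 and 169 times as high as Ptgs2 in the t-PBS livers. Ptgs2 and Pla2g4a are neighbours on chromosome 13, with 144 kb and no other gene of the table between them, and Pla2g4a did not share the lower counts of Ptgs2. Ptges (ENSRNOG00000006320, chr3:9727408-9738752), the inducible prostaglandin E synthase, had no count in any liver, which allows a level of up to 3 counts (0.210 to 0.248 CPM). In all, 13770 genes were at 0 throughout, and Ptges can only be said to be listed at 0.

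The promoters of Pla2g2a, Ptgs2 and Ptgs1 are shown because the former pair was lower in each t-DHEA liver and Ptgs1 was not. RefSeq entries of build GRCr8 were found for 7 of the 10 genes and not for Alox15, Alox5ap and Ephx2. Each window runs from 250 bases before to 50 bases after the annotated start, on the plus strand, and lies at chr5:156359475-156359774 for Pla2g2a, chr13:64713813-64714112 for Ptgs2 and chr3:39981169-39981468 for Ptgs1. Capitals mark matches to 5 motifs searched on both strands, none of which overlapped another in these 3 windows.
Pla2g2a: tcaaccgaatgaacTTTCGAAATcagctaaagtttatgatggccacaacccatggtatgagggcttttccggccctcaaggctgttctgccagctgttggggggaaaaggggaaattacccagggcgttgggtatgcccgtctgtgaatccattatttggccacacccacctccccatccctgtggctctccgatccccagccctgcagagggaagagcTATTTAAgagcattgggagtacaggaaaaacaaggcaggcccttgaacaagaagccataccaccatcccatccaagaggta
Ptgs2: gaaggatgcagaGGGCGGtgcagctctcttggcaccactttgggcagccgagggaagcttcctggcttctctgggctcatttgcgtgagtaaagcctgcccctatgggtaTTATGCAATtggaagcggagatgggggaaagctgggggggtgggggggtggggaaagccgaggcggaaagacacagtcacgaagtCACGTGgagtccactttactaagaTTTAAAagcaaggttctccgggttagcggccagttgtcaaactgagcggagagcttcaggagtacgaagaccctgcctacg
Ptgs1: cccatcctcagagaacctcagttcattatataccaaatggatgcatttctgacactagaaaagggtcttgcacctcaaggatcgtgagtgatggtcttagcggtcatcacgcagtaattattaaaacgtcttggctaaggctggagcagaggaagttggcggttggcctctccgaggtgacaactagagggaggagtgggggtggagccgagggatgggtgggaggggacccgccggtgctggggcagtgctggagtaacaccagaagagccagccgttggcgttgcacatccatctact
The motifs were an E-box (CACGTG), which 6.42% of all 33469 promoters of this length hold, a C/EBP-type site (TTNNGNAAT, 12.3%), a GC box (GGGCGG, 33.1%) and the AT-rich boxes TATTTAA (4.58%) and TTTAAA (13.6%). They were chosen after these sequences were seen. Pla2g2a held a C/EBP-type match 236 bases before the start and TATTTAA 31 bases before it. Ptgs2 held a GC box, a C/EBP-type match, an E-box and TTTAAA, which began 238, 140, 55 and 31 bases before the start. Among the 7 promoters the C/EBP-type letters occurred in 2, those of Pla2g2a and Ptgs2, and Ptgs1 held none of the 5 motifs. Pla2g4a, which overlapped between the groups, held TTTAAA 213 and 163 bases before the start. Ptges and Alox5 held the GC box, 87 and 61 bases before it. Since genes and motifs were both chosen with these data or sequences seen, nothing is read from which promoters share a motif. A match of letters does not show that a factor binds there.

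Alox15 (ENSRNOG00000019183, chr10:56953691-56962161), a lipoxygenase that makes 12- and 15-hydroxy acids from arachidonic acid, was higher in each t-DHEA liver than in any t-PBS liver. Rats 1, 2 and 3 gave 12, 12 and 8 counts in t-PBS, and 19, 24 and 38 counts in t-DHEA. The level was 0.776 ± 0.151 CPM (SD, n = 3) in t-PBS and 2.10 ± 0.732 CPM (SD, n = 3) in t-DHEA livers. This was a log2 fold change of 1.42 (SE 0.36), or 2.68-fold higher, and of 1.11 when t-DHEA rat 3 was left out. Of leukocytes that can express the gene, the 8 macrophage markers summed to 468 to 566 CPM in t-PBS and 505 to 685 CPM in t-DHEA livers and overlapped, with none of 7 tested called. The 4 eosinophil markers, of which Siglec5 held most of the level, summed to 7.88 to 16.3 CPM and 7.33 to 11.4 CPM. Without Siglec5 the other 3 summed to 0 to 0.151 CPM in t-PBS and to 0.224 to 0.330 CPM in t-DHEA livers, which did not overlap. These sums stand close to the limit of 3 counts (0.210 to 0.248 CPM). Ccr3 had 2 counts in t-PBS and 9 in t-DHEA livers, Prg2 1 and 1, and Epx 0 and 1. The 6 neutrophil markers did not overlap either, at 0.754 to 2.45 CPM against 2.47 to 2.81 CPM. Without S100a9 the other 5 summed to 0.0754 to 1.54 CPM in t-PBS and to 0.825 to 1.645 CPM in t-DHEA livers and overlapped. Of 2 neutrophil markers tested, S100a9 was called higher, as were 1.97% of all genes tested. S100a9 had 29 counts in t-PBS and 52 in t-DHEA livers and a log2 fold change of 0.94 (SE 0.40). S100a8, named after its values were seen, had 3 counts in t-PBS and 17 in t-DHEA livers, and Mpo was at 0 in each liver. Csf3r, the other marker tested, had 26 and 29 counts, overlapped and was not called. Cxcr2 went the other way with 7 and 3 counts, and Elane had 0 and 1. The part of these cells in the level of Alox15 was not tested.

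The genes of the 5-lipoxygenase branch did not separate the groups. Alox5ap (ENSRNOG00000000907, chr12:6854920-6879154), the membrane protein that presents arachidonic acid to 5-lipoxygenase, had 26, 19 and 23 counts in t-PBS and 19, 33 and 30 counts in t-DHEA livers. Its log2 fold change was 0.36 (SE 0.28), with a 95% interval from -0.29 to 1.003. Alox5 (ENSRNOG00000012972, chr4:148398892-148446303), the 5-lipoxygenase itself, had 4, 0 and 3 counts in t-PBS and 7, 0 and 2 counts in t-DHEA livers. The ratio of the summed counts, t-DHEA to t-PBS, was 1.37 with an exact 95% interval from 0.456 to 4.34. Ltc4s (ENSRNOG00000003244, chr10:35737664-35739625), which joins glutathione to leukotriene A4, had 4, 7 and 0 counts in t-PBS and 0, 6 and 4 counts in t-DHEA livers, a ratio of 0.972 with an exact 95% interval from 0.370 to 2.52. Both groups held livers without a count of Alox5 or of Ltc4s, and a difference of a size within these intervals could not be detected at this depth.

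Ephx2 (ENSRNOG00000017286, chr15:42757235-42794279), the soluble epoxide hydrolase that turns epoxides of arachidonic acid into diols, had the highest mean level of the 10 genes in both groups, although Ptgs1 was 1.98 times as high per length in t-DHEA rat 2. Rats 1, 2 and 3 gave 1146, 633 and 632 counts in t-PBS, and 419, 130 and 629 counts in t-DHEA. The groups overlapped through t-DHEA rat 3, t-DHEA rat 2 was the lowest liver and t-PBS rat 1 the highest. The level was 58.2 ± 19.1 CPM (SD, n = 3) in t-PBS and 30.9 ± 19.7 CPM (SD, n = 3) in t-DHEA livers. The log2 fold change was -0.91 (SE 0.47), with a 95% interval from -1.97 to 0.15. Leaving out t-DHEA rat 2 made it -0.48, and leaving out t-DHEA rat 3 made it -1.39. The within-group SD of 0.91 on the log2 CPM scale was larger than that of 98.7% of the genes tested.

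**Figure D3:**
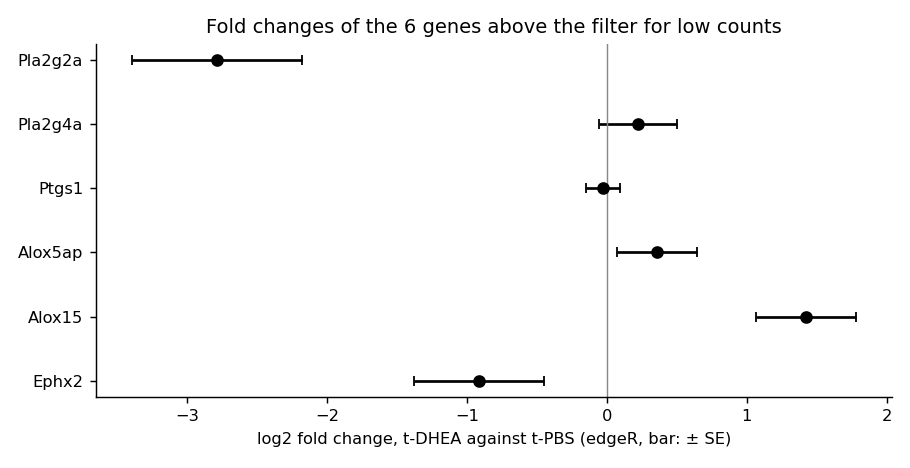
Log2 fold change of t-DHEA against t-PBS livers for the 6 genes above the filter for low counts, as points with bars of 1 standard error from edgeR's quasi-likelihood fit. Pla2g2a lies at -2.79 and Alox15 at 1.42, and the bars of Ptgs1 and Pla2g4a cross 0.

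Pla2g2a and Alox15 were each compared with 8997 genes of at least 5 CPM by the correlation of log2 CPM over the 6 livers, which reflects the difference between the groups as well as single livers. The patterns most like that of Pla2g2a were those of Rac1, Map3k14 and Txnrd1, with Pearson's r of 0.989, 0.988 and 0.985, and 52 genes had an r above 0.9. For Alox15 they were those of Tmem208, Myo10 and LOC100911693, with r of 0.995, 0.9845 and 0.981, and 43 genes had an r above 0.9. With 6 livers many genes reach such values, and these are given as a description.

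The rest of the pathway was read from a list of 85 other genes, of which 80 were found in the table. Among them 17 were at 0 throughout, 18 had counts below the filter and 45 were tested. The 17 include the prostanoid synthase Cbr1, which stood on 2 rows of which only the first was read. Cbr1 as a gene therefore cannot be said to be at 0 or untested for lack of counts. Of these 45, 22 had a log2 fold change above 0 and 23 below 0, with a median of -0.0058. Between t-DHEA and t-PBS livers 3 genes met the criteria, or 6.67% of those tested against 4.95% of all genes. They were Ptgds and Dpep1, which fell, and Fam213b, which rose. By edgeR's quasi-likelihood test the smallest adjusted p was 0.801 among the 45 genes and 0.2425 among all 12210, of which 634 had an unadjusted p under 0.05. DESeq2 placed 24 genes under an adjusted p of 0.05. The number of pathway genes called was 1 without t-PBS rat 1 and also without t-PBS rat 2, and it was 5 without t-DHEA rat 3.

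Among 7 prostanoid synthases tested, 1 fell and 1 rose. Ptgds, the lipocalin-type prostaglandin D synthase, gave 14, 21 and 11 counts in the t-PBS rats and 0, 5 and 1 in the t-DHEA rats, without overlap. It fell by 2.78 on the log2 scale (SE 0.71), with an unadjusted edgeR p of 0.0037 (adjusted p 0.801). It met the criteria without each liver in turn and fell by 4.52 without t-DHEA rat 2. Like Pla2g2a, it was lowest in t-DHEA rat 1, in which the mesothelium markers other than Gpm6a stood at 5.94 CPM. These markers were lowest in t-DHEA rat 2 (1.57 CPM), which was the highest t-DHEA liver for Ptgds, so the order of the livers differed. Fam213b, which encodes a prostaglandin F synthase, had 138, 103 and 116 counts in t-PBS and 114, 262 and 142 counts in t-DHEA livers, so that the groups overlapped and t-DHEA rat 2 stood apart. It rose by 0.62 with an unadjusted edgeR p of 0.0423 (adjusted p 0.957), by 0.24 without t-DHEA rat 2, and it met the criteria in 2 of the 6 fits without a liver. Of the 7 synthases tested, Ptges3, a co-chaperone with prostaglandin E synthase activity, had the highest level, at 55.8 FPKM over all livers. Its log2 fold change was 0.04 (SE 0.10).

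**Figure D4:**
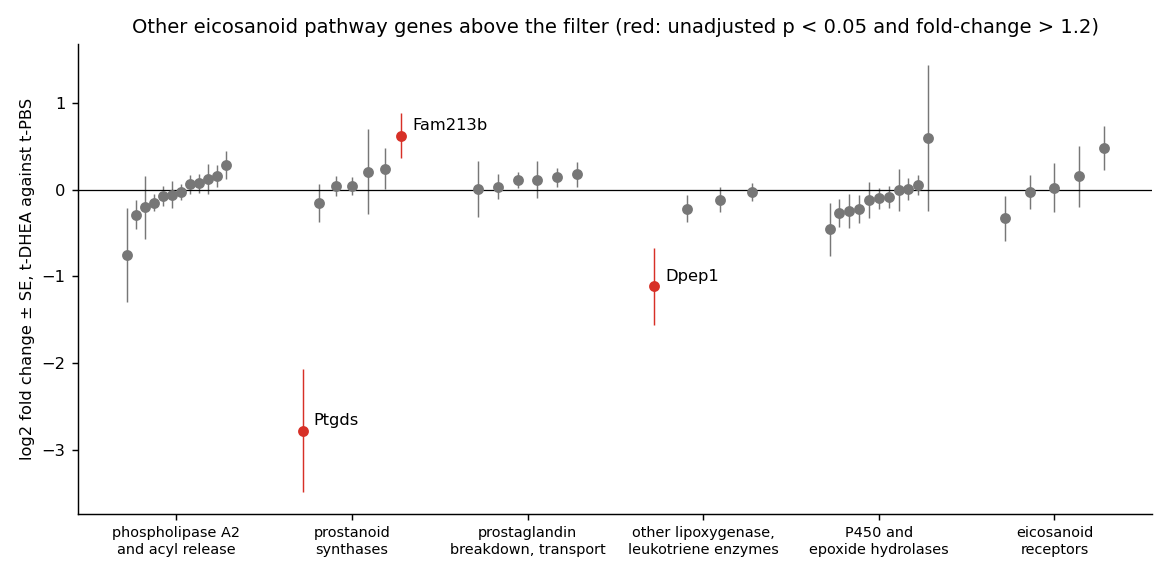
Log2 fold change of t-DHEA against t-PBS livers, with bars of 1 standard error, for the 45 other pathway genes tested, grouped by role and ordered by value within a role. The 3 genes in red, Ptgds, Dpep1 and Fam213b, met the criteria, and most other genes lie near 0.

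None of 12 other phospholipase A2 and acyl release genes met the criteria, and their median log2 fold change was -0.04. Pla2g16, a phospholipase of lipid-rich tissues, and Acsl4, which activates arachidonic acid for its return to membranes, were the highest at 101 and 99.1 FPKM over all livers. Their log2 fold changes were 0.16 and 0.07 with standard errors of 0.13 and 0.11, and both lay far above the 6.30 FPKM of Pla2g2a in t-PBS livers. All 6 genes of prostaglandin breakdown and transport had a log2 fold change above 0, with a median of 0.11, and none met the criteria. The highest of them were Slco2a1, the prostaglandin transporter, at 76.6 FPKM with a log2 fold change of 0.18 ± 0.14 (SE), and Ptgr1, a prostaglandin reductase, at 42.4 FPKM with 0.03 ± 0.14 (SE).

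Of 4 other lipoxygenase and leukotriene genes tested, all had a log2 fold change below 0 and 1 met the criteria. Dpep1, a dipeptidase that converts leukotriene D4 to E4, had 65, 73 and 27 counts in t-PBS and 22, 37 and 12 counts in t-DHEA livers, which overlapped. It fell by 1.11 on the log2 scale (SE 0.44), with an unadjusted edgeR p of 0.0339 (adjusted p 0.957), and it met the criteria in 2 of the 6 fits without a liver. It fell by 0.79 without t-DHEA rat 3. Mgst2 and Mgst3, microsomal enzymes that can also make leukotriene C4, stood at 75.7 and 58.6 FPKM, far above the 0.516 FPKM of Ltc4s, with log2 fold changes of -0.22 ± 0.16 and -0.12 ± 0.15 (SE).

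None of 11 cytochrome P450 and epoxide hydrolase genes met the criteria, and their median log2 fold change was -0.10. Cyp2c23, an arachidonic acid epoxygenase, and Cyp4f1, a hydroxylase of arachidonic acid and leukotriene B4, had the highest levels, at 647 and 329 FPKM over all livers. Cyp2c23 had 19906, 18693 and 17239 counts in t-PBS and 14187, 11491 and 17542 counts in t-DHEA livers, with a log2 fold change of -0.27 ± 0.16 (SE), which was -0.10 without t-DHEA rat 2, and -0.41 and past the criteria without t-DHEA rat 3. That of Cyp4f1 was 0.01 ± 0.12 (SE). Ephx1, the microsomal epoxide hydrolase, which is named after its values were seen, had 7799, 8167 and 12242 counts in t-PBS and 6402, 3840 and 8996 counts in t-DHEA livers. Like Ephx2, both Cyp2c23 and Ephx1 were lowest in t-DHEA rat 2, and so was Cyp2j10 (28.5 CPM). Other genes of this list were not. Of the t-DHEA livers, rat 1 was lowest for Cyp4f1 and Cyp4a1, at 653 and 111 CPM against 766 and 192 CPM in rat 2. Cyp4a2 was highest in rat 2, at 297 CPM. These P450 families have closely related members among which the counting could split reads.

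None of the 5 eicosanoid receptors tested met the criteria. Ptger3, a prostaglandin E receptor that hepatocytes express, stood at 4.89 FPKM with a log2 fold change of 0.48 ± 0.25 (SE), which was 0.16 without t-DHEA rat 3, and 0.70 and past the criteria without t-DHEA rat 1. Ptgfr, the prostaglandin F receptor, stood at 4.55 FPKM with -0.03 ± 0.20 (SE).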

How the data were processed

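RNA-seq libraries of 3 t-PBS and 3 t-DHEA rat livers were prepared with a TruSeq kit and sequenced as paired ends. The authors filtered reads with Seqtk, mapped them to Rnor_6.0 with HISAT2 2.0.4 and counted fragments per gene with StringTie 1.3.0. The deposited counts are raw whole numbers, and the FPKM values the authors deposited are scaled by gene length and depth. The annotation release and strandedness are not given in the sources used here, and no other gene of the table overlapped a member.

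Counts were tested with edgeR 4.0.16 in R 4.3.3 (TMM, default filter, quasi-likelihood test, two-sided, no covariate), since a count model is not fitted to FPKM. A call needed a fold-change over 1.2 with an unadjusted p under 0.05, and adjusted p-values are Benjamini-Hochberg values over all genes tested. CPM use TMM-scaled library sizes. Standard errors come from the test statistic. An exact permutation test, whose smallest p is 0.1 with 3 livers a group, was not used. Fits were checked on simulated counts. Counting intervals and the limit of 3 counts cover counting error only.

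The 10 genes, the 85 pathway genes and the 13 marker lists were chosen with earlier results of these data known. Of 158 list symbols outside the 10 genes, 152 matched a gene name. Cyp4a2 and Cbr1 stood on 2 rows each, of which only the first was read, and that of Cbr1 was at 0 in every liver. All 10 genes are named, and of the pathway genes those called and the 2 with the highest mean FPKM in each role. Ephx1, Cyp2j4, Cyp2j10, Cyp4a1, Cyp4a2, Cyp4a8, Cyp4f4, Cyp4f17 and Cyp4f39 were named outside this rule, after their values were seen. Marker genes are named as the highest of a list or as at 0 in every liver, where a result turns on them. The remaining neutrophil and eosinophil markers were named outside this rule, after their values were seen. The alternatives were DESeq2 1.42.0, its size factors, other filters, limma 3.58.1 on log2(FPKM + 0.1) or log2(FPKM + 1), blocking on replicate number, dropping each liver, and a fold-change over 1.5.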

Additional observations from a re-analysis of the deposited data

How the results depend on the processing

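Over the 12 alternatives with a value, the log2 fold change of Pla2g2a ran from -3.71 to -1.98 and that of Alox15 from 0.50 to 1.59, as a description of genes chosen with their difference known. Ptgds met the criteria in each of its 12 alternatives, and no named gene that met the criteria changed sign. At least 10 counts in every liver left 4 of the 10 genes in the test, without Pla2g2a, Alox15 and Ptgds, and 0 of these 4 met the criteria in edgeR. The 0.50 of Alox15 came from log2(FPKM + 1), a scale that understates changes of low genes. Ptgs2 entered only without the filter, where 9 of the 10 genes were tested and 3 met the criteria, 1 higher and 2 lower. A fold-change above 1.5 left 275 genes of all tested, against 604 at 1.2. Limma on log2(FPKM + 0.1) gave 165 higher and 448 lower genes and limma on log2(FPKM + 1) 147 and 390, against 240 and 364 in edgeR, and the cause was not tested. Leaving out 1 liver at a time gave 514 to 747 called genes of all tested, 2 to 3 of the 10 genes, 1 to 5 of the other pathway genes and 5 to 8 marker lists without overlap, the 8 without t-PBS rat 2. Same-numbered livers of both groups did not deviate together (r from -0.059 to -0.055), so the numbers do not pair them. With replicate number as a block, 539 genes, 4 other pathway genes and 3 of the 10 genes met the criteria, the third being Ephx2 with a log2 fold change of -1.11, and Fam213b no longer met them, as on both FPKM scales. Summing each marker list without its highest gene, chosen after seeing the data, again left 5 lists without overlap, but these were mesothelium and bile duct (lower) and intestinal epithelium, eosinophils and platelets (higher). The eosinophil sums were then close to the limit of 3 counts. Depth limits Ptgs2, Alox5, Ltc4s and Ptges, which stayed below the filter for low counts.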
